A study of Caenorhabditis elegans with 10 samples.

Results

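The libraries described here compare Caenorhabditis elegans carrying daf-2(e1370) with worms carrying daf-16(mu86); daf-2(e1370), both kept at 15 °C, the temperature the labels call permissive. They are 2 of the 10 libraries in the series and were chosen by genotype and temperature alone, with 1 library per group. daf-2(e1370) is a temperature-sensitive mutation of the insulin/IGF-1 receptor, and both groups carry it. daf-16(mu86) is a deletion in the FOXO transcription factor gene, and only the second group carries it. At the same temperature the series holds daf-2(e1370); math-33(tm3561), math-33(tm3561) and the wild type N2, used here to place the pair. The strain with daf-16(mu86) and daf-2(e1370) is called the daf-16 double mutant below, that with daf-2(e1370) and math-33(tm3561) the math-33 double mutant, and daf-2(e1370) alone daf-2. math-33 encodes a deubiquitylating enzyme. The same 2 genotypes were also sampled after 22 hr at 25 °C. The labels give L4 larvae and preadults, whole animals, poly(A) RNA and about 3000 worms per library from semi-synchronized cultures. All strains were grown at 15 °C before the shift. With 1 library per group there is no replicate check, so no p-value is given, and every interval below covers counting error only.

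In worms, insulin/IGF-1 signalling through DAF-2 leads to phosphorylation of DAF-16 and keeps it out of the nucleus. When the receptor is weakened, DAF-16 enters the nucleus and takes part in expression programmes of stress resistance, fat and carbohydrate use, innate immunity, longevity and the dauer larva, a resistant arrested stage with its own cuticle. daf-2(e1370) worms at the permissive temperature are known to develop to adults, while at the restrictive temperature they form dauers when shifted early in larval life. The comparison at 15 °C addresses which genes differ with the daf-16 genotype, directly or indirectly, in worms at the permissive temperature.

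The deposited values are FPKM, fragments per kilobase of transcript per M reads. Depth read from the FPKM steps was 35.2 M reads in the daf-2 library and 25.4 M reads in the daf-16 double mutant. It ranged from 25.2 to 35.2 M reads over the 10 libraries. Differences are daf-2 minus the daf-16 double mutant on the log2(FPKM + 1) scale, which understates changes of weakly expressed genes. A difference of at least 1 log2 unit is counted. Folds are ratios of FPKM with exact 95% intervals from the recovered read pairs.

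The daf-16 gene on chromosome I checked the labels. Its table row of 906 bases, the shortest of its rows, lies at the shared end of the transcripts and stood at 135 FPKM in daf-2 and 182.4 FPKM in the daf-16 double mutant. Reads of the longer rows beyond this short row differed between the genotypes. For the row of 1523 bases they numbered 362 in daf-2, 280 in the math-33 double mutant, 301 in math-33, 297 in N2 and 0 in the daf-16 double mutant at 15 °C. Other long rows were not empty in the daf-16 double mutant: the row of 1542 bases had 335 such reads in daf-2 and 62 in the daf-16 double mutant, the row of 1613 bases 274 in daf-2 and 22 in the daf-16 double mutant, and the row of 1453 bases 187 in daf-2 and 8 in the daf-16 double mutant. The library labelled as the daf-16 double mutant had fewer reads beyond the short row than every other 15 °C library in each of these rows. The math-33 gene stood at 71.3 FPKM in daf-2, 14.4 in the math-33 double mutant, 15.9 in math-33, 78.5 in N2 and 77.6 in the daf-16 double mutant, low in both math-33 mutants. The daf-2 transcript itself, present in both mutants, was at 31.5 FPKM in daf-2 and 21.1 FPKM in the daf-16 double mutant, a ratio of 1.49 (95% interval 1.40 to 1.59).

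Of 21175 named genes with rows of at least 200 bases, 14754 had at least 1 FPKM in at least 2 of the 10 libraries. Among these, 458 genes (3.1%) stood higher in daf-2 by at least 1 log2 unit at 15 °C, and 586 genes (3.97%) stood lower by as much. The counting interval of the fold excluded 1 for 431 of the higher and 564 of the lower genes. The median difference over all genes kept was 0.03, and 70.8% of genes differed by less than 0.5 log2 units. Most of the large differences were on the lower side. Differences of at least 2 log2 units were negative for 98 genes and positive for 23.

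**Figure D1:**
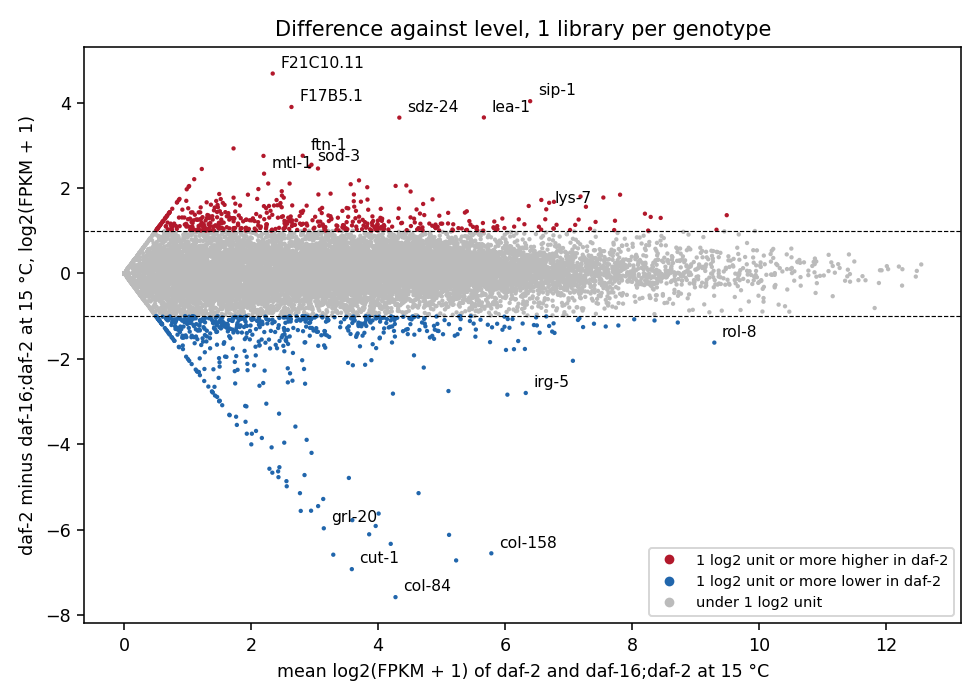
Each point is 1 of the 14754 genes kept, with the mean log2(FPKM + 1) of the 2 libraries on the x axis and daf-2 minus the daf-16 double mutant at 15 °C on the y axis. Red points are the 458 genes past 1 log2 unit on the higher side and blue points the 586 past it on the lower side. The blue arm reaches to -7.58 (col-84), further from 0 than the highest red point at 4.68 (F21C10.11).

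Some of the best known targets of DAF-16 were higher in daf-2 than in worms also lacking daf-16 at 15 °C, and others were not. Of 39 activated targets kept from a list of 45 names, 12 passed 1 log2 unit on the higher side and 2 on the lower side, with a list median of 0.55 against 0.03 over all genes. In 19 of the 39 the daf-2 library was the highest of the 5 at 15 °C, against 2385 of all 14754 genes kept. The daf-16 double mutant was the lowest in 10 of the 39, against 4560 of all 14754, so that count did not exceed the share over all genes.

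sip-1, which encodes a small heat-shock protein of the alpha-crystallin family, stood at 339 FPKM in daf-2, 50.02 in the math-33 double mutant, 142.7 in math-33, 61.6 in N2 and 19.8 in the daf-16 double mutant. The daf-2 library was the highest and the daf-16 double mutant the lowest of the 5, and the ratio between them was 17.1 (95% interval 14.3 to 20.7). Reads of sip-1 overlap a short row, F43D9.8, on chromosome III, so the counting of that stretch is uncertain. lea-1, a late embryogenesis abundant protein linked to desiccation tolerance, stood at 178.9 FPKM in daf-2, 23.2 in the math-33 double mutant, 43.5 in math-33, 27.4 in N2 and 13.3 in the daf-16 double mutant. Its order across the 15 °C libraries was the same as that of sip-1 at the top and the bottom, and its ratio was 13.4 (11.7 to 15.5). sod-3, the mitochondrial manganese superoxide dismutase used as a reporter of DAF-16 activity, stood at 16.97 FPKM in daf-2, 5.57 in the math-33 double mutant, 4.02 in math-33, 3.04 in N2 and 2.18 in the daf-16 double mutant. daf-2 again lay above the other 4 libraries, which were within a narrow low range, and the ratio was 7.79 (4.80 to 13.4).

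The metal-handling targets showed a different order. ftn-1, a ferritin that stores iron, stood at 17.2 FPKM in daf-2, 9.50 in the math-33 double mutant, 11.9 in math-33, 0.989 in N2 and 1.70 in the daf-16 double mutant. mtl-1, a metallothionein, stood at 9.34 FPKM in daf-2, 8.06 in the math-33 double mutant, 10.8 in math-33, 1.12 in N2 and 1.05 in the daf-16 double mutant. For both genes the 3 libraries with daf-2 alone or with a math-33 mutation were high, and N2 and the daf-16 double mutant were low. The ratio of daf-2 to the daf-16 double mutant was 10.12 (5.50 to 20.7) for ftn-1 and 8.89 (2.82 to 45.1) for mtl-1, the second resting on about 3 read pairs in the daf-16 double mutant. icmt-1, an isoprenylcysteine carboxyl methyltransferase listed as F21F3.3, stood at 18.4 FPKM in daf-2, 5.24 in the math-33 double mutant, 23.3 in math-33, 1.92 in N2 and 2.54 in the daf-16 double mutant. It followed the same grouping except in the math-33 double mutant, which was nearer to the low libraries.

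Smaller differences were seen for lys-7, a lysozyme of pathogen defence, at 168 FPKM in daf-2, 78.5 in the math-33 double mutant, 31.5 in math-33, 70.6 in N2 and 58.7 in the daf-16 double mutant, a ratio of 2.86 (2.62 to 3.13). sodh-1, an alcohol dehydrogenase, was at 142.2 FPKM in daf-2 and 46.96 in the daf-16 double mutant. The linker histone gene hil-1 was at 3.07 FPKM in daf-2, 1.49 in the math-33 double mutant, 3.49 in math-33, 0.681 in N2 and 0 in the daf-16 double mutant. The remaining listed genes past 1 log2 unit on the higher side were nnt-1, a mitochondrial transhydrogenase, and the paralogs pud-3 and pud-4, whose shared sequence makes their separate values uncertain.

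Several textbook targets did not differ by 1 log2 unit at 15 °C. The noncoding RNA tts-1 stood at 122.4 FPKM in daf-2 and 64.2 in the daf-16 double mutant, a difference of 0.92, with 401 FPKM in the math-33 double mutant, 297 in math-33 and 58.7 in N2. pck-1, phosphoenolpyruvate carboxykinase, was at 175 FPKM in daf-2 and 174 in the daf-16 double mutant, with a ratio of 1.01 (0.955 to 1.06). dod-3 was at 0.536 FPKM in daf-2 and 1.24 in the daf-16 double mutant, and its interval for the ratio, 0.0672 to 2.22, holds 1. hsp-12.6, a small heat-shock protein gene, was at 0 in both libraries. The 2 listed activated targets on the lower side were gpdh-1, a glycerol-3-phosphate dehydrogenase of the osmotic response, and fat-5, a palmitoyl-CoA desaturase. gpdh-1 was at 16.7 FPKM in daf-2, 42.98 in the math-33 double mutant, 25.5 in math-33, 22.98 in N2 and 39.04 in the daf-16 double mutant. fat-5 was at 17.5 FPKM in daf-2, 25.4 in the math-33 double mutant, 13.5 in math-33, 9.49 in N2 and 37.2 in the daf-16 double mutant. In both genes the daf-16 double mutant lay above N2, by more than daf-2 did for fat-5 and with daf-2 below N2 for gpdh-1.

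Among the 15 largest differences on the higher side were several genes with no given function. F21C10.11 was at 24.6 FPKM in daf-2, 4.45 in the math-33 double mutant, 5.62 in math-33, 3.15 in N2 and 0 in the daf-16 double mutant, at least 25.0-fold higher in daf-2 against a floor of 3 counts in that library. F17B5.1 was at 22.96 FPKM in daf-2, 3.29 in the math-33 double mutant, 3.33 in math-33, 1.54 in N2 and 0.610 in the daf-16 double mutant. Its ratio was 37.6 (23.7 to 63.8), and daf-2 stood alone at the top in both genes. sdz-24 was at 70.4 FPKM in daf-2, 17.3 in the math-33 double mutant, 19.5 in math-33, 19.4 in N2 and 4.70 in the daf-16 double mutant, a ratio of 15.0 (10.99 to 20.9). For sdz-24 the 3 other libraries were alike, with daf-2 above and the daf-16 double mutant below them. F45D11.1 was at 10.9 FPKM in daf-2 and 0.764 in the daf-16 double mutant, and Y39G8B.7 at 17.7 FPKM in daf-2 and 2.20 in the daf-16 double mutant. sams-5, an S-adenosylmethionine synthetase, was at 26.6 FPKM in daf-2 and 5.11 in the daf-16 double mutant. emb-1 was at 4.44 FPKM in daf-2 and 0 in the daf-16 double mutant, at least 4.57-fold higher, and C07B5.2 at 3.61 FPKM in daf-2 and 0 in the daf-16 double mutant, at least 5.29-fold higher.

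Genes listed as held down when DAF-16 is active mostly showed the opposite direction. Of 22 kept repressed genes, 0 passed 1 log2 unit on the higher side and 7 on the lower side, with a median of -0.65. The shares over all genes kept were 3.1% higher and 3.97% lower. Against N2 at 15 °C, the list median was 0.07 in daf-2 and 0.57 in the daf-16 double mutant. As a list, these genes were thus not below N2 in daf-2. The 7 include 5 dod genes, named for being downstream of daf-16, as well as irg-5 and the collagen col-2, both given below. col-2 was higher in daf-2 at 25 °C, with 141 FPKM in daf-2 and 53.2 in the daf-16 double mutant. dod-24 stood at 3.62 FPKM in daf-2, 17.98 in the math-33 double mutant, 4.11 in math-33, 12.01 in N2 and 13.98 in the daf-16 double mutant, 3.86-fold (2.92 to 5.16) higher in the daf-16 double mutant. dod-17 stood at 8.60 FPKM in daf-2, 20.6 in the math-33 double mutant, 11.7 in math-33, 10.3 in N2 and 26.6 in the daf-16 double mutant. dod-22 stood at 8.88 FPKM in daf-2, 22.8 in the math-33 double mutant, 8.95 in math-33, 4.64 in N2 and 20.9 in the daf-16 double mutant. For dod-17 and dod-22 the higher libraries were the math-33 double mutant and the daf-16 double mutant. dod-21, at 0 in daf-2 and 2.29 FPKM in the daf-16 double mutant, and dod-23, at 10.4 FPKM in daf-2 and 22.0 in the daf-16 double mutant, went the same way. dod-17, dod-21, dod-22 and dod-24 lie within 1 window of 100 kb on chromosome IV, so they are neighbours and may not be separate observations.

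Immune genes differed in both directions. irg-5, an infection response gene listed as F35E12.5 (chromosome V, 13737079 to 13738458, build ce10), stood at 29.4 FPKM in daf-2, 98.5 in the math-33 double mutant, 59.1 in math-33, 96.7 in N2 and 211 in the daf-16 double mutant. daf-2 was the lowest and the daf-16 double mutant the highest of the 5 libraries, 7.17-fold apart (6.53 to 7.88). Of 54 kept innate immunity genes, 4 were higher in daf-2 and 8 were lower, with a median of -0.15. The lower ones included the C-type lectin clec-86, at 1.94 FPKM in daf-2 and 16.6 in the daf-16 double mutant, and sysm-1 (T24B8.5), at 0.959 FPKM in daf-2 and 7.72 in the daf-16 double mutant. The 4 higher ones were lys-7, the lectin clec-61, the saposin-like spp-2, at 184.03 FPKM in daf-2 and 90.5 in the daf-16 double mutant, and the antimicrobial neuropeptide-like nlp-29, at 203 FPKM in daf-2 and 91.9 in the daf-16 double mutant. Over the whole C-type lectin family, 4 of 121 were higher and 9 were lower. Over all genes, 3.1% were higher and 3.97% lower, so the higher count of the family was near that share.

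Some small secreted peptides were higher in daf-2. Of 32 kept genes for fungus-induced peptides, caenacins and antibacterial factors, 9 were higher in daf-2 and 2 were lower, with a median of 0.67. The interval excluded a ratio of 1 for 8 of the 9. The shares over all genes kept were 3.1% higher and 3.97% lower. fipr-2 was at 548 FPKM in daf-2, 315 in the math-33 double mutant, 202 in math-33, 335 in N2 and 222 in the daf-16 double mutant, and fipr-1 at 48.8 FPKM in daf-2, 23.5 in the math-33 double mutant, 20.1 in math-33, 36.8 in N2 and 18.6 in the daf-16 double mutant. In 14 of the 32 the daf-2 library was the highest of the 5, against 2385 of all 14754 genes kept. abf-6, an antibacterial factor, was at 11.7 FPKM in daf-2 and 3.23 in the daf-16 double mutant. The 2 on the lower side were cnc-2, at 0 in daf-2 and 1.82 FPKM in the daf-16 double mutant, and cnc-9, at 0 in daf-2 and 8.92 FPKM in the daf-16 double mutant. Several fipr genes are similar paralogs with short rows, so reads may be shared among them.

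Insulin-like peptides, the ligands of DAF-2, had 5 of 27 kept members higher in daf-2, 4 of them with an interval that excludes a ratio of 1, and 0 lower. Their median was -0.01 and their mean 0.23, which differ in sign. ins-27 was at 172 FPKM in daf-2, 73.5 in the math-33 double mutant, 36.2 in math-33, 84.4 in N2 and 51.4 in the daf-16 double mutant, with a ratio of 3.34 (2.81 to 3.98). ins-29 was at 55.2 FPKM in daf-2, 16.22 in the math-33 double mutant, 13.7 in math-33, 26.5 in N2 and 20.04 in the daf-16 double mutant. ins-26 was at 4.22 FPKM in daf-2 and 0.716 in the daf-16 double mutant. These 3 genes lie within 18958 bases of each other on chromosome I and were highest in daf-2. The other 2 were ins-9 and ins-23, and the interval for the ratio of ins-23, 0.948 to 25.2, holds 1. The better studied ligand daf-28 was at 55.7 FPKM in daf-2 and 68.6 in the daf-16 double mutant. None of the 27 kept members of the insulin/IGF pathway list differed by 1 log2 unit, against 3.1% higher and 3.97% lower over all genes.

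The largest differences of all belonged to cuticle genes that were nearly silent in daf-2 worms at 15 °C. The cuticle collagen col-84 (chromosome II, 11868482 to 11869580) stood at 0.398 FPKM in daf-2, 89.7 in the math-33 double mutant, 0.676 in math-33, 0.063 in N2 and 267 in the daf-16 double mutant. It was 670-fold (325 to 1668) higher in the daf-16 double mutant than in daf-2. cut-1, a cuticlin known from the dauer cuticle, stood at 0.089 FPKM in daf-2, 56.4 in the math-33 double mutant, 0.062 in math-33, 0.025 in N2 and 131 in the daf-16 double mutant. In both genes 2 libraries were high, the daf-16 double mutant and the math-33 double mutant, and the other 3 were near 0. col-36 stood at 2.65 FPKM in daf-2, 111 in the math-33 double mutant, 0.258 in math-33, 0.581 in N2 and 384 in the daf-16 double mutant. col-158 stood at 4.68 FPKM in daf-2, 141 in the math-33 double mutant, 1.54 in math-33, 1.44 in N2 and 533 in the daf-16 double mutant. col-2, a collagen known from dauer larvae, stood at 0.629 FPKM in daf-2, 99.9 in the math-33 double mutant, 0.176 in math-33, 0.174 in N2 and 88.4 in the daf-16 double mutant. Here the math-33 double mutant was slightly above the daf-16 double mutant, so the order of the 2 high libraries varied between genes.

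**Figure D2:**
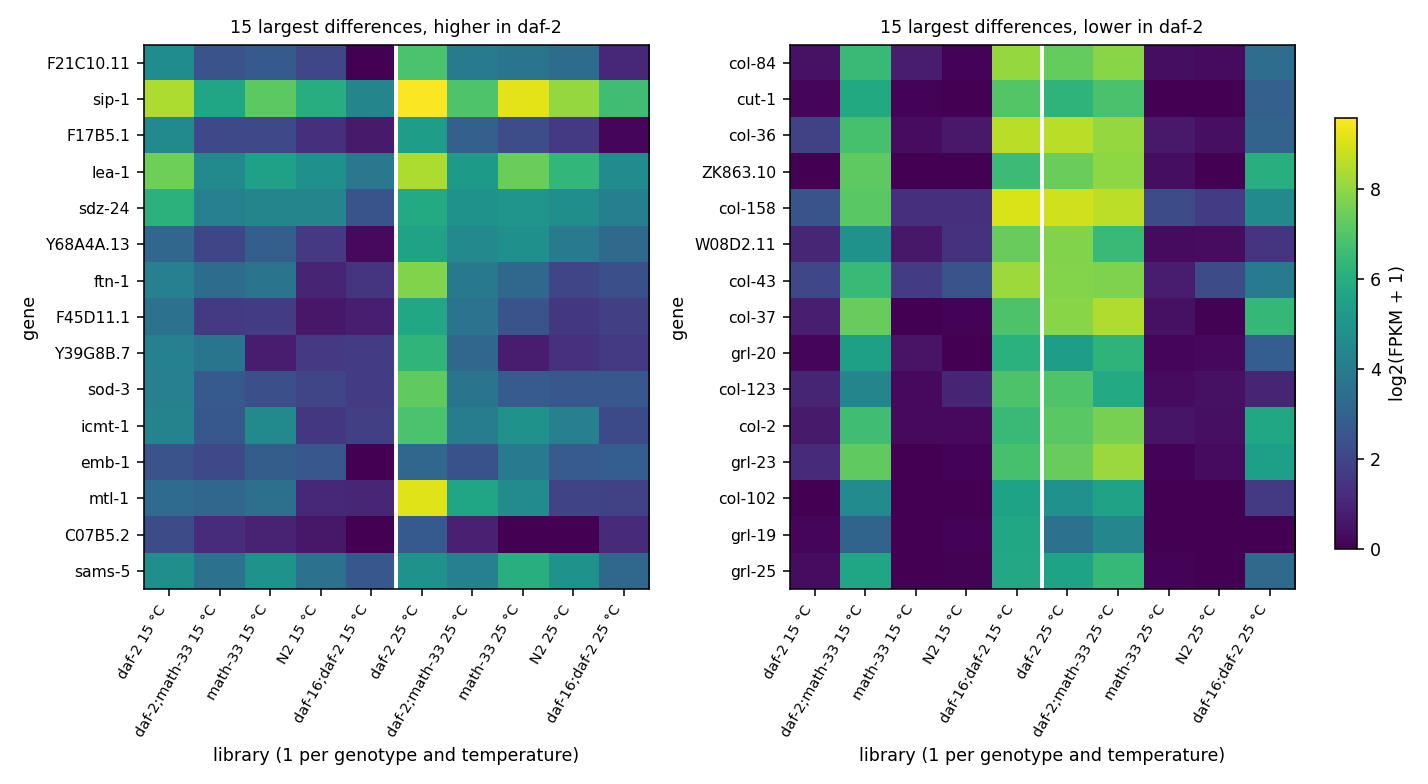
Colour gives log2(FPKM + 1) in each of the 10 libraries for the 15 genes with the largest positive and the 15 with the largest negative difference at 15 °C. On the left, sip-1 and lea-1 are brightest in daf-2 at both temperatures; on the right, genes such as col-84 (0.398 FPKM in daf-2 against 267 FPKM in the daf-16 double mutant at 15 °C) are dark in daf-2, math-33 and N2 at 15 °C and bright in the math-33 double mutant and the daf-16 double mutant.

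Of the 98 genes at least 2 log2 units lower in daf-2, 61 were under 1 FPKM in daf-2, math-33 and N2 alike, a set picked here after its values were seen. Its median was 0.0770 FPKM in daf-2, 2.82 in the math-33 double mutant, 0.0620 in math-33, 0.0640 in N2 and 12.59 in the daf-16 double mutant. The choice of the set fixed the low values in daf-2, math-33 and N2 and the high ones in the daf-16 double mutant. The math-33 double mutant entered the choice only through the filter of at least 1 FPKM in at least 2 of the 10 libraries. With daf-2, math-33 and N2 low, each member also passed through the math-33 double mutant or a 25 °C library. The count is thus partly fixed: 48 of the 61 reached at least 1 FPKM in the math-33 double mutant, against 13643 of all 14754 genes kept. The set holds 16 col collagens, 7 hedgehog-related genes and 2 cuticlin genes. Counted by gene name over all 14754 genes kept, these families had 141, 67 and 27 members. In the set, 33 members (54.1%) lie on chromosome V, which carries 20.1% of all genes kept. Some of its members overlap, such as ZK863.10 with col-37, T13B5.10 with col-40 and D2024.16 with col-114, and the counting of their shared reads is uncertain. In col-123 and W08D2.11, which overlap on chromosome IV, the same holds.

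**Figure D3:**
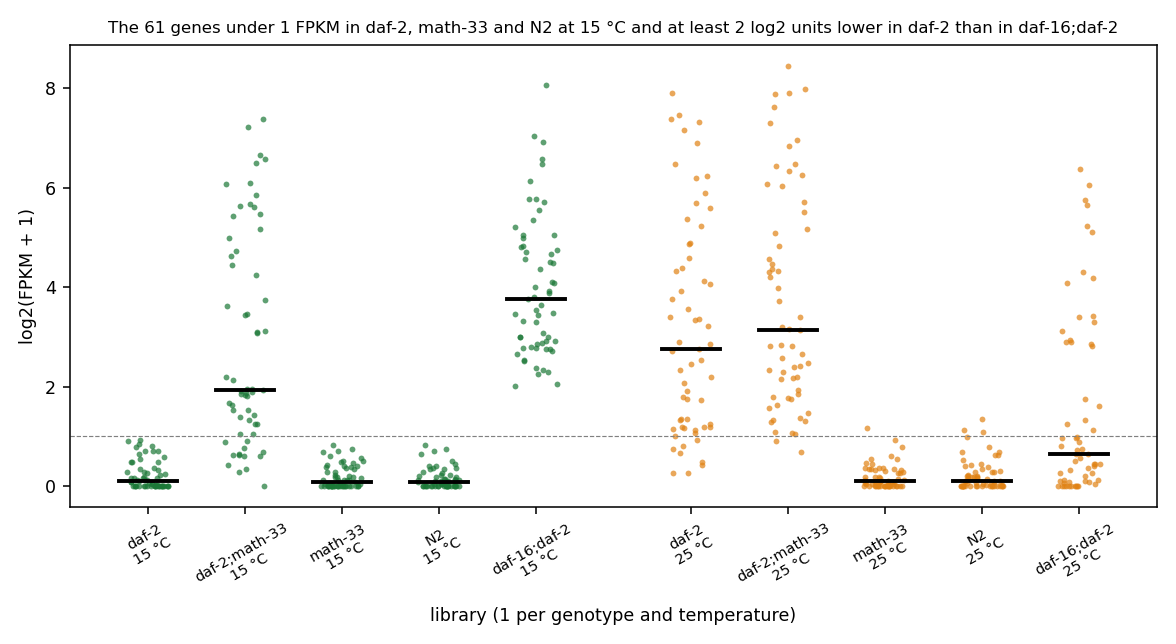
Points are log2(FPKM + 1) of the 61 genes under 1 FPKM in daf-2, math-33 and N2 at 15 °C and at least 2 log2 units lower in daf-2 than in the daf-16 double mutant, in the 10 libraries, with black bars for medians and the dashed line at 1. At 15 °C the medians are 0.0770 FPKM in daf-2 and 12.59 FPKM in the daf-16 double mutant, and at 25 °C they are 5.72 FPKM in daf-2 and 0.577 FPKM in the daf-16 double mutant.

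As families, cuticle genes were divided. Of 157 listed col collagens, 15 of which fell under the filter on low values, 10 were higher in daf-2 and 28 were lower. Their median was 0.05 and their mean was -0.63, so the 2 differ in sign. The shares over all genes kept were 3.1% higher and 3.97% lower. Several abundant collagens were higher in daf-2. col-103 was at 345 FPKM in daf-2, 167 in the math-33 double mutant, 110 in math-33, 183 in N2 and 100 in the daf-16 double mutant, and col-98 at 265 FPKM in daf-2 and 89.2 in the daf-16 double mutant. Their ratios were 3.45 (3.26 to 3.65) and 2.97 (2.77 to 3.18). The summed FPKM of the family was 27685 in daf-2 and 23243 in the daf-16 double mutant, so the total was larger in daf-2.

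Genes of the molting cycle, which are periodic over each larval stage, were lower in daf-2 as a group. Of 61 kept, 1 was higher in daf-2 and 14 were lower, with a median of -0.58. The shares over all genes kept were 3.1% higher and 3.97% lower. The daf-2 library was the lowest of the 5 in 31 of these 61 genes, against 3197 of all 14754 genes kept, and the daf-16 double mutant was the highest in 40, against 2808 of all 14754. The collagen rol-8 stood at 358 FPKM in daf-2, 689 in the math-33 double mutant, 374 in math-33, 500 in N2 and 1103 in the daf-16 double mutant. The molting gene mlt-9 stood at 38.4 FPKM in daf-2, 68.4 in the math-33 double mutant, 63.4 in math-33, 66.3 in N2 and 97.3 in the daf-16 double mutant. wrt-1, a warthog hedgehog-related gene, stood at 23.9 FPKM in daf-2, 37.2 in the math-33 double mutant, 38.6 in math-33, 42.9 in N2 and 60.5 in the daf-16 double mutant. In all 3 genes daf-2 was the lowest and the daf-16 double mutant the highest library. osm-8, a mucin-like gene of the osmotic response, was at 28.5 FPKM in daf-2 and 72.4 in the daf-16 double mutant. The 1 gene on the higher side was grd-3. Beside the same shares over all genes, 21 of 72 kept hedgehog-related and patched-related genes were lower in daf-2 and 1 was higher, with a median of -0.43. The ground-like genes grl-20, grl-23, grl-19 and grl-25 led them, with grl-20 at 0.117 FPKM in daf-2 and 69.0 in the daf-16 double mutant.

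The summed FPKM of the molting list was 8032 in daf-2, 8724 in the math-33 double mutant, 6826 in math-33, 10858 in N2 and 12317 in the daf-16 double mutant. Cultures were only semi-synchronized and this list varies with the hour of the larval stage, and the part of stage in the result was not tested. The 5 vitellogenins, yolk proteins of the adult intestine, had 0 members past 1 log2 unit and summed to 1911 FPKM in daf-2, 3468 in the math-33 double mutant, 5976 in math-33, 1791 in N2 and 2306 in the daf-16 double mutant. Of 48 kept adult cuticle genes, 3 were higher in daf-2 and 2 were lower, with a median of 0.04. The 2 lower ones were col-114 and col-72, which belong to the nearly silent set. Of 16 kept heterochronic timing genes, 0 differed by 1 log2 unit in either direction. With 3.1% of all genes higher and 3.97% lower, the counts in the adult cuticle and heterochronic lists were near the share over all genes.

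Germline genes were slightly and broadly higher in daf-2 than in the daf-16 double mutant. Against N2 at 15 °C, the median of the germline proliferation and meiosis list was 0.002 in daf-2 and -0.495 in the daf-16 double mutant. Of 49 kept genes of germline proliferation and meiosis, 42 had positive differences, against 7800 of all 14754 genes kept. By 1 log2 unit, 3 were higher in daf-2 and 0 were lower, with a median of 0.44. The shares over all genes kept were 3.1% higher and 3.97% lower. The 3 higher genes encode proteins of the synaptonemal complex, which holds paired chromosomes together in meiosis. syp-3 stood at 27.6 FPKM in daf-2, 16.53 in the math-33 double mutant, 27.04 in math-33, 18.3 in N2 and 6.07 in the daf-16 double mutant, with a ratio of 4.55 (3.38 to 6.23). syp-1 stood at 22.7 FPKM in daf-2, 10.9 in the math-33 double mutant, 23.6 in math-33, 18.8 in N2 and 9.64 in the daf-16 double mutant. syp-4 stood at 26.4 FPKM in daf-2, 16.45 in the math-33 double mutant, 24.7 in math-33, 22.9 in N2 and 10.8 in the daf-16 double mutant. In each of them the daf-16 double mutant was the lowest library. Genes of the meiotic chromosome axis were just under the threshold: him-3, htp-1, htp-2 and htp-3 had differences of 0.93, 0.92, 0.89 and 0.98, and syp-2 had 0.99. In 41 of the 49 genes the daf-16 double mutant was the lowest of the 5 libraries at 15 °C, against 4560 of all 14754 genes. In bulk RNA, fewer germ cells and less RNA per germ cell cannot be told apart, and the part of culture stage was not tested.

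Of 39 kept oocyte and eggshell genes, 2 were higher in daf-2, the chondroitin proteoglycans cpg-2 and cpg-3, and 0 were lower, with a median of 0.26. Over all genes, 3.1% were higher and 3.97% lower, so these counts were near that share. cpg-3 stood at 153 FPKM in daf-2, 73.5 in the math-33 double mutant, 181.6 in math-33, 105 in N2 and 63.01 in the daf-16 double mutant. Of 55 kept genes of the major sperm protein and related families, 1 was higher in daf-2 and 6 were lower, with a median of -0.28. Their summed FPKM was 495 in daf-2, 1805 in the math-33 double mutant, 3215 in math-33, 626 in N2 and 625 in the daf-16 double mutant. The sperm level in both libraries of the pair was far below that in math-33, and the members are similar in sequence, so single values are uncertain.

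Of 41 kept fat metabolism genes, 3 were higher in daf-2 and fat-5 was lower. The lysosomal lipase lipl-2 was at 32.9 FPKM in daf-2, 18.7 in the math-33 double mutant, 11.8 in math-33, 17.7 in N2 and 10.9 in the daf-16 double mutant. Its neighbour in function lipl-1 was at 19.1 FPKM in daf-2 and 8.26 in the daf-16 double mutant, and the lipid-binding protein gene lbp-1 was at 30.1 FPKM in daf-2 and 14.4 in the daf-16 double mutant. Of 24 kept antioxidant genes, sod-3 was higher and msra-1, a methionine sulfoxide reductase, was lower in daf-2. msra-1 stood at 41.7 FPKM in daf-2, 154 in the math-33 double mutant, 199 in math-33, 66.2 in N2 and 127 in the daf-16 double mutant. Of 17 kept heat-shock protein genes, sip-1 alone passed 1 log2 unit. No member passed 1 log2 unit in the lists of the unfolded protein response of the endoplasmic reticulum (20 kept) or of mitochondria (14), of the glyoxylate cycle, gluconeogenesis and glycolysis (31), or of proteasome subunits (33). The same was true of cytosolic ribosomal proteins (75), muscle (43) and neurons (38). With 3.1% of all genes higher and 3.97% lower, a count of 0 in the shorter of these lists is near the share over all genes. The same holds for the counts in the antioxidant and heat-shock lists.

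**Figure D4:**
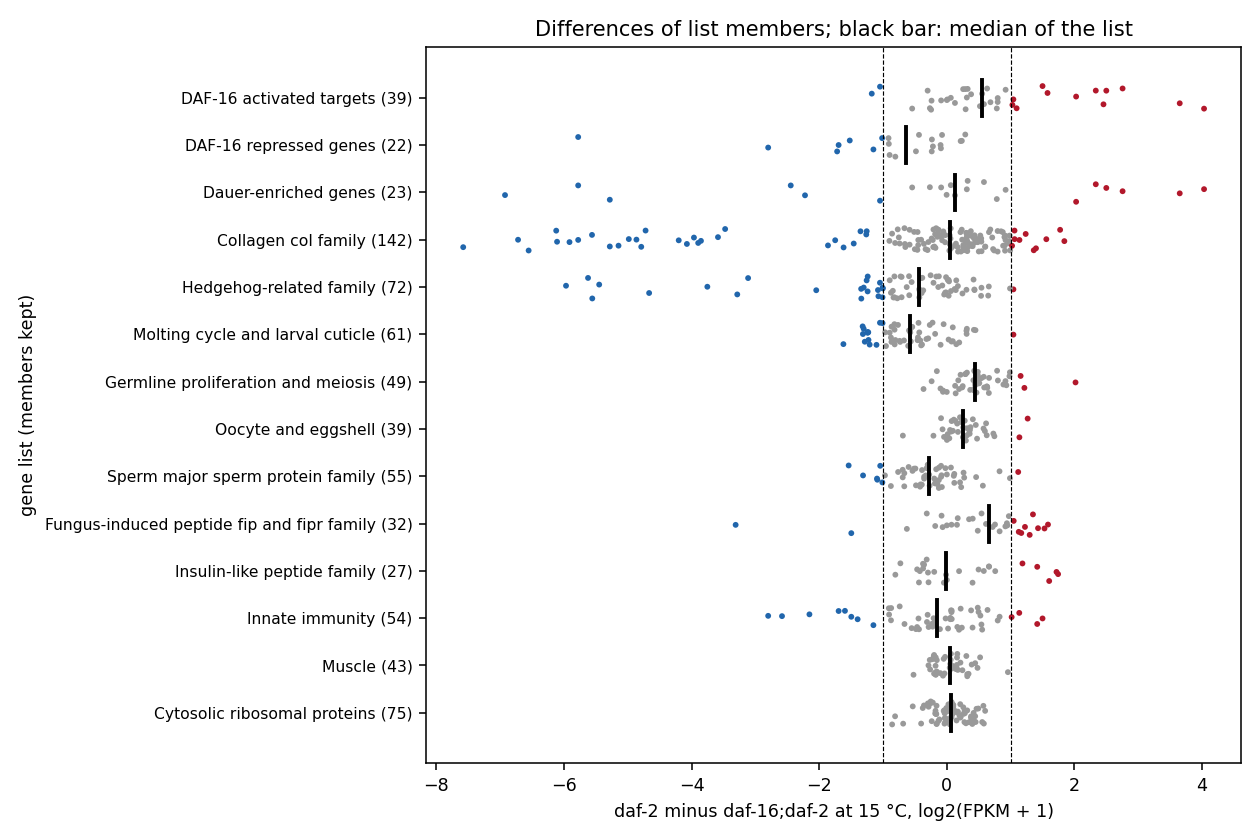
Points are members of 14 gene lists and black bars are list medians, with daf-2 minus the daf-16 double mutant at 15 °C in log2(FPKM + 1) on the x axis and dashed lines at 1 log2 unit in each direction. The DAF-16 activated targets (median 0.55) and repressed genes (median -0.65) lie on opposite sides of 0, the collagens reach furthest to the left, and muscle and ribosomal proteins stay between the dashed lines.

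The other libraries at 15 °C placed the members of the pair. Of the 458 genes higher in daf-2, the daf-2 library was above the math-33 double mutant, math-33 and N2 in 308, and the daf-16 double mutant was below all of them in 347. Both held in 218 genes. The median difference from N2 was 0.57 in daf-2 and -0.69 in the daf-16 double mutant. Of the 586 genes lower in daf-2, the daf-2 library was below the same 3 libraries in 383 and the daf-16 double mutant above them in 432. The median difference from N2 was -0.50 in daf-2 and 0.75 in the daf-16 double mutant. These genes were chosen on the pair itself, which favours both members lying outside. The math-33 double mutant was above daf-2 in 551 of the 586 lower genes, against 9077 of all 14754 genes kept. It was below daf-2 in 395 of the 458 higher genes. The daf-2 library enters both of those comparisons as well as the choice of the genes.

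The same genotypes at 25 °C shared no library with the pair at 15 °C. There, 886 genes (6.01%) passed 1 log2 unit on the higher side in daf-2 and 516 genes (3.5%) on the lower side. Of the 458 genes higher at 15 °C, 134 were higher at 25 °C as well, which is 29.3% of the 15 °C genes and 15.1% of the 25 °C genes, and 10 were lower. Of the 586 genes lower at 15 °C, 83 were lower at 25 °C, which is 14.2% of the 15 °C genes and 16.09% of the 25 °C genes, and 90 were higher. A positive difference at 25 °C was found in 78.0% of the genes higher at 15 °C and in 50.1% of all genes kept, and a negative one in 56.1% of the genes lower at 15 °C and in 49.7% of all genes kept.

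All 12 activated targets that were higher at 15 °C were higher at 25 °C too, and 17 more passed 1 log2 unit only at 25 °C, which made 29 of 39 with a median of 1.74. The larger differences there came with higher levels in the daf-2 library. mtl-1 was at 554 FPKM in daf-2 and 2.69 in the daf-16 double mutant at 25 °C, sod-3 at 153 FPKM in daf-2 and 5.02 in the daf-16 double mutant, and ftn-1 at 221 FPKM in daf-2 and 4.04 in the daf-16 double mutant. tts-1 was at 4248 FPKM in daf-2 and 87.03 in the daf-16 double mutant. Over the list, the median of 25 °C minus 15 °C was 1.22 log2 units in daf-2 and 0.41 in the daf-16 double mutant. sip-1 had the smaller difference at 25 °C, 2.88, with 747 FPKM in daf-2 and 100 in the daf-16 double mutant; its level was higher at 25 °C in all 5 genotypes. fat-5 had the opposite direction there, with 371 FPKM in daf-2 and 49.9 in the daf-16 double mutant at 25 °C. Of the 10 genes with the largest difference in common at both temperatures, F21C10.11 and F17B5.1 led, with 117 FPKM in daf-2 and 1.12 in the daf-16 double mutant for F21C10.11 and 40.9 FPKM in daf-2 and 0.101 in the daf-16 double mutant for F17B5.1 at 25 °C. On the lower side, irg-5 was at 17.5 FPKM in daf-2 and 1004 in the daf-16 double mutant, and the C-type lectin clec-10 at 0 in daf-2 and 13.03 FPKM in the daf-16 double mutant.

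Many genes with large negative differences at 15 °C had positive ones at 25 °C. The 98 genes with differences of -2 or less at 15 °C include 21 col collagens and 9 hedgehog-related genes, against 141 and 67 of all 14754 genes kept. Of the 98, 62 passed 1 log2 unit on the higher side at 25 °C and 9 on the lower side. Of the 61 among them that were nearly silent in daf-2, math-33 and N2, 47 passed it on the higher side and 0 on the lower side. col-84 was at 158.6 FPKM in daf-2, 235 in the math-33 double mutant, 0.289 in math-33, 0.217 in N2 and 9.75 in the daf-16 double mutant at 25 °C. cut-1 was at 74.3 FPKM in daf-2, 114.1 in the math-33 double mutant, 0 in math-33, 0 in N2 and 6.63 in the daf-16 double mutant. Both daf-2 and the math-33 double mutant were high at 25 °C and both libraries without the daf-2 mutation were near 0. The 25 °C libraries entered the choice of the 61 genes through the expression filter of at least 1 FPKM in at least 2 libraries. This filter favours high values there, so counts at 25 °C for this set are partly fixed by the choice. At 25 °C, 53 of the 61 reached at least 1 FPKM in daf-2 and 59 in the math-33 double mutant. The counts were 1 in math-33, 3 in N2 and 23 in the daf-16 double mutant. Over all 14754 genes kept, the 5 counts in the same order were 13570, 13924, 13353, 13412 and 13525. Of the 23 kept genes on a list of dauer-enriched genes, 6 were higher and 6 were lower in daf-2 at 15 °C. The lower ones were col-2, col-40, cut-1, cut-5, cut-6 and fat-5. The shares over all genes kept at 15 °C were 3.1% higher and 3.97% lower. The median of this list was 0.13 and its mean -0.18, which differ in sign. At 25 °C 19 of the dauer-enriched genes were higher and 0 were lower, against 6.01% and 3.5% over all genes kept. The germline list had 0 members past 1 log2 unit at 25 °C, with a median of -0.05, and the molting list had 1 in each direction.

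**Figure D5:**
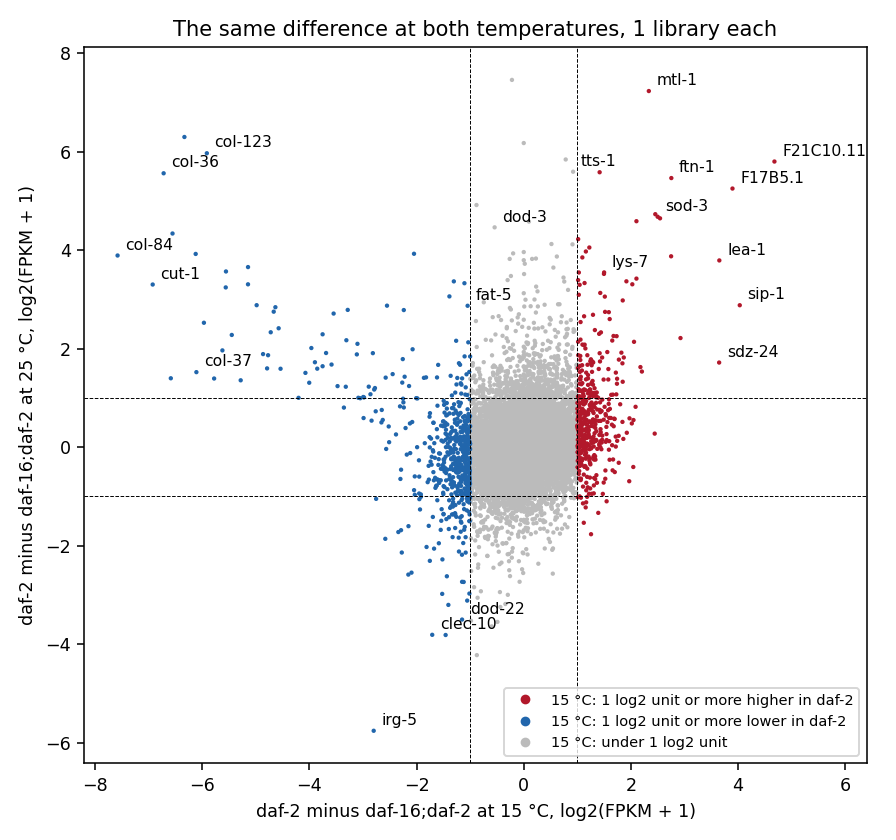
Each point is 1 of the 14754 genes, with daf-2 minus the daf-16 double mutant in log2(FPKM + 1) at 15 °C on the x axis and at 25 °C on the y axis; colour marks the call at 15 °C. Known targets such as mtl-1 (2.33 and 7.23) and sip-1 (4.03 and 2.88) lie in the upper right, irg-5 (-2.80 and -5.76) in the lower left, and collagens such as col-36 (-6.72 and 5.56) in the upper left.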

How the data were processed

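The authors deposited FPKM per transcript for 10 libraries (47467 rows, coordinates of build ce10). STAR, HOMER and edgeR are named in the submitters' processing notes; no source used here gives their versions, their roles or whether counting used strand. Rows without a gene name (1104, 1.72 to 1.97% of summed FPKM) were left out. For each symbol the row of 200 bases or more with the highest mean FPKM was used; 20815 of 21175 symbols (98.3%) matched the RefSeq gene table of WBcel235, used for current names only. Genes needed at least 1 FPKM in at least 2 libraries. Differences are of log2(FPKM + 1).

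Within a library, FPKM times length came in whole steps for rows of 300 to 1500 bases (99.98 to 100% within the rounding of the table plus 0.01%), which gave the depth: 25.2 to 35.2 M reads. Exact 95% intervals of ratios and the floor of 3 counts (0.170 to 0.238 FPKM for 1000 bases) used read pairs, 12.6 to 17.6 M, and cover counting error only. The count steps were checked on simulated data. No count test was run, because each group holds 1 library. Python 3.11.15, numpy 2.4.6, pandas 2.3.3 and scipy 1.17.1 were used.

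Named genes are the 15 largest differences in each direction whose interval excludes 1, up to 4 per list past 1 log2 unit, 18 well-known genes, and the 10 most alike in each direction and 10 most opposite at 25 °C. Other genes were named after their values were seen. The members and the lists were chosen with earlier results of these data known.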

Additional observations from a re-analysis of the deposited data

Results flagged for a closer look

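These 10 genes had opposite differences at the 2 temperatures, each past 1 log2 unit; the difference between temperatures was not tested, since each value rests on 1 library per group. The values are daf-2 minus the daf-16 double mutant on the log2(FPKM + 1) scale. col-84 had -7.58 at 15 °C and 3.89 at 25 °C, cut-1 -6.93 and 3.30, col-36 -6.72 and 5.56, and col-158 -6.56 and 4.34. W08D2.11 and col-123, which overlap on chromosome IV, had -6.33 and -5.91 at 15 °C and 6.30 and 5.97 at 25 °C. col-43 had -6.12 at 15 °C and 3.92 at 25 °C. The ground-like gene grl-19 had -5.56 at 15 °C and 3.57 at 25 °C, T05H10.3 had -5.15 and 3.66, and col-45 had -5.15 and 3.31. Of these 10, 6 are collagens. The summed FPKM of the molting list, which varies with larval stage, was 8032 in daf-2 and 12317 in the daf-16 double mutant at 15 °C and 8428 in daf-2 and 8765 in the daf-16 double mutant at 25 °C; its part in the reversal was not tested.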

How the results depend on the processing

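Counts depended most on the pseudocount. With 0.1 FPKM in place of 1, 999 genes were higher and 1261 lower in daf-2 at 15 °C, 288 were higher and 285 lower at both temperatures, 256 were lower at 15 °C and higher at 25 °C, and the fungus-induced peptide median was 0.97. A filter of 5 FPKM left 358 lower genes. With all row lengths, 161 genes were lower at both temperatures and 154 were lower at 15 °C and higher at 25 °C. The remaining counts stayed within 1.5 times of those given, under no expression filter, size factors by median of ratios, quantile normalization, the longest row per symbol, a required interval, and without msp, ssp, nspd, col and 21ur entries. Of 15 list medians, the insulin-like peptide one (-0.01) changed sign under 3 settings and no other did. Of 133 named genes, 53 moved by more than their interval with a pseudocount of 0.1, and none that passed 1 log2 unit changed direction. Median-of-ratios scaling moved the median of all genes to -0.00. No paired analysis was possible because each group has 1 library and the labels share no replicate numbers. Leaving out a library was not possible either. The planned description of DAF-16 motifs in promoters was not run. Depth limits genes near the floor of 3 counts: 288 kept genes were at 0 in daf-2 and 228 in the daf-16 double mutant at 15 °C.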

Other observations

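Other gene groups, noticed after their values were seen, also differed between the libraries. The shares past 1 log2 unit over all genes kept were 3.1% higher and 3.97% lower. Of 21 kept oac genes, a family of acyltransferase-like proteins, 10 were lower in daf-2 by 1 log2 unit and 0 were higher. oac-57 stood at 16.3 FPKM in daf-2, 21.4 in the math-33 double mutant, 13.97 in math-33, 12.23 in N2 and 49.1 in the daf-16 double mutant, and oac-51 at 7.49 FPKM in daf-2, 7.94 in the math-33 double mutant, 1.47 in math-33, 22.0 in N2 and 25.8 in the daf-16 double mutant. Of 7 lpr genes, whose lipocalin-like products belong to the apical extracellular matrix, 4 were lower and 0 higher. lpr-4 stood at 143.5 FPKM in daf-2, 224 in the math-33 double mutant, 197 in math-33, 197 in N2 and 336 in the daf-16 double mutant.

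Lower genes were dense in parts of chromosome V. In the window of 100 kb from 7200001 to 7300000, 10 of 24 kept genes were lower in daf-2 and 0 were higher, among them C13A2.3, C13A2.4, C13A2.9, C13A2.10 and C13A2.12. In the next window, 6 of 18 were lower. By chromosome, the share of kept genes that were lower was 5.43% on V and 5.23% on X, and 2.55 to 4.02% on the others. The genes of such windows can be paralogs with shared reads.

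Rows left out of the comparison were counted as well. Of 365 kept rows with no gene name, 10 were higher in daf-2 and 9 were lower. Neither count exceeded the share over all genes kept, 3.1% higher and 3.97% lower. The largest was a row at chromosome III, 8962218 to 8965492, the position of grl-25, with 0.422 FPKM in daf-2, 80.4 in the math-33 double mutant, 0 in math-33, 0.0340 in N2 and 94.2 in the daf-16 double mutant. Of 1379 kept names with rows under 200 bases, 629 of them 21ur entries, 15.5% were higher and 20.96% were lower. Close to that length limit, 18 genes with rows of 200 to under 220 bases were higher and 16 were lower, and 11 names with rows of 180 to under 200 bases were higher and 16 were lower.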
